A study of Homo sapiens with 5 samples.

Results

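The genes described here are 30 direct transcriptional targets of p53, taken from a fixed list of symbols that spans DNA repair, death receptors, other apoptosis genes, metabolism, growth arrest and feedback on p53 itself. A gene counted as found when its symbol equalled a symbol of the authors' deposited table. By this rule 28 of the 30 were found among 27477 genes in all, and 27 of the 28 carry an adjusted p there. EDA2R and SPATA18 were not found by this rule, so they have no expression values here and enter only the promoter search below.

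The study compared PC9 cells made tolerant to an EGFR inhibitor with the parental cells. PC9 is an established human lung adenocarcinoma line with an activating EGFR mutation. The parental group has 3 libraries of parental PC9 cells. The drug-tolerant group has 2 libraries of PC9 cells that spent 6 days in gefitinib, an inhibitor of the EGFR kinase, at 50 nM and then 3 days in growth medium. All cells were grown in RPMI medium with serum, and both groups come from this single line. The labels do not say whether replicates were separate cultures, so p-values here reflect the spread among the 5 libraries, and that spread may be technical.

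p53 is a transcription factor that is held low by MDM2 and MDM4 and rises after DNA damage, oncogene signalling or ribosomal stress. It binds pairs of a short palindromic half-site and switches on genes that stop division, repair DNA, kill the cell, adjust its metabolism, or shut p53 down again. Several of the targets also respond to other transcription factors.

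Promoters of the members were searched for this half-site, since p53 binds pairs of it. The RefSeq promoter windows (GRCh38.p14, 250 bases before to 50 bases after the start site) matched 23 members by symbol. The pattern was the p53 half-site of 10 bases (purines, a C, 2 A or T bases, a G, pyrimidines), which reads the same on both strands. It was present in 4 of the 23 windows, or 17.4%, against 6.63% of all 35116 windows. A full site, 2 adjoining half-sites with at most 2 mismatches outside the core, was in 1 of the 23 (4.35%) and in 0.285% of all windows. Each member was counted with 1 window, while the full set of windows was not reduced to 1 per gene. The members were picked as p53 targets, and whether the shares differ was not tested. Capitals mark the match in each stretch, given 5′ to 3′ on the gene's strand. AEN lies at chr15:88621301-88621330 (+ strand, full site), FDXR at chr17:74872995-74873015 (- strand), PLK2 at chr5:58460199-58460228 (- strand) and RPS27L at chr15:63157517-63157546 (- strand).
AEN: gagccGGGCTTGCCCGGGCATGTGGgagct
FDXR: gggcaggagcGGGCTTGCCCt
PLK2: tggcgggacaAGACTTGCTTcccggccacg
RPS27L: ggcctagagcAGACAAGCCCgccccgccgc
A match is a description of the letters and shows no binding. In many targets the known p53 site lies in an intron or further upstream, outside this window.

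The table gives each gene a mean level (reads divided by a size factor for the depth of each library, averaged over the libraries), a log2 fold change and its standard error. A positive fold change means more RNA in the drug-tolerant cells. Whole reads per library were recovered for 27 members, all found ones except PLK2, as the single combination of 5 read numbers that returns the deposited mean, fold change and standard error of a gene. The libraries obtained in this way are called parental a, b or c and drug-tolerant a or b, because they could not be matched to replicate numbers. Their depths, estimated as the size factor times the summed mean level of all genes, ran from 14.2 M to 21.4 M reads. Reads were recovered for 8571 genes with an adjusted p. Over the 8193 to 8568 of them with at least 10 reads in a pair of libraries, the chi-square per degree of freedom, which is near 1 where libraries differ by sampling noise alone, was 1.26 between parental b and c and 1.33 between the drug-tolerant libraries. Between parental a and parental b or c it was 23.9 and 25.0, while against the drug-tolerant libraries parental a gave 5.41 and 4.95. Parental a therefore stood apart from the other parental libraries and lay nearer to the drug-tolerant ones. The deposited comparison counts it as parental, so it enters every parental mean and deposited fold change below. Whether its label or its preparation differs was not tested. Differences in recovered reads are therefore given against parental a and against parental b and c, except for TNFRSF10C, which has too few reads. In the authors' deposited table the epithelial gene KRT8 had a mean level of 35758 and EPCAM one of 8755, while the lung markers NKX2-1, NAPSA and SFTPC were at 2.83, 2.33 and 0.38. Of markers of other cells, the fibroblast genes COL1A1 and PDGFRB were at 162 and 0.35, the endothelial genes PECAM1, CDH5 and VWF at 1616, 253 and 6.61, and the haematopoietic genes CD14 and ITGAM at 3.65 and 25.9, in the authors' deposited table. The fraction of cells with a transcript and its level per cell cannot be told apart in bulk RNA.

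No member passed the deposited test. At an adjusted p under 0.05, 0 of 27 members were called higher, beside 0.263% of the 15223 genes tested, and 0 were called lower, beside 0.289%. The members' smallest adjusted p was 0.39, that of GADD45A, in the authors' deposited table. At an unadjusted p under 0.05 the deposited DESeq2 test held 2 members, GADD45A and DDB2, both lower, and 0 higher, against 10.8% of all genes tested. limma on the recovered reads of all 5 libraries also called 0 of 26 members, and it called 0 of all 8571 genes. At an unadjusted p under 0.05 limma held 2 members lower, beside 7.72% of all genes, and 0 higher, beside 4.97%.

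As a group the members sat at the centre of the table. Of the 27, 13 had a positive and 14 a negative fold change, with a median of -0.02 on the log2 scale, and all 15223 tested genes also had a median of -0.02. A log2 fold change of more than 0.5 in size was seen in 6 members, or 22.2%, beside 24.5% of all tested genes. Their fold changes ran from -0.77 for GADD45A to 0.65 for ASCC3 in the authors' deposited table. The median standard error of these 27 values was 0.29, beside 0.31 over all tested genes.

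**Figure D1:**
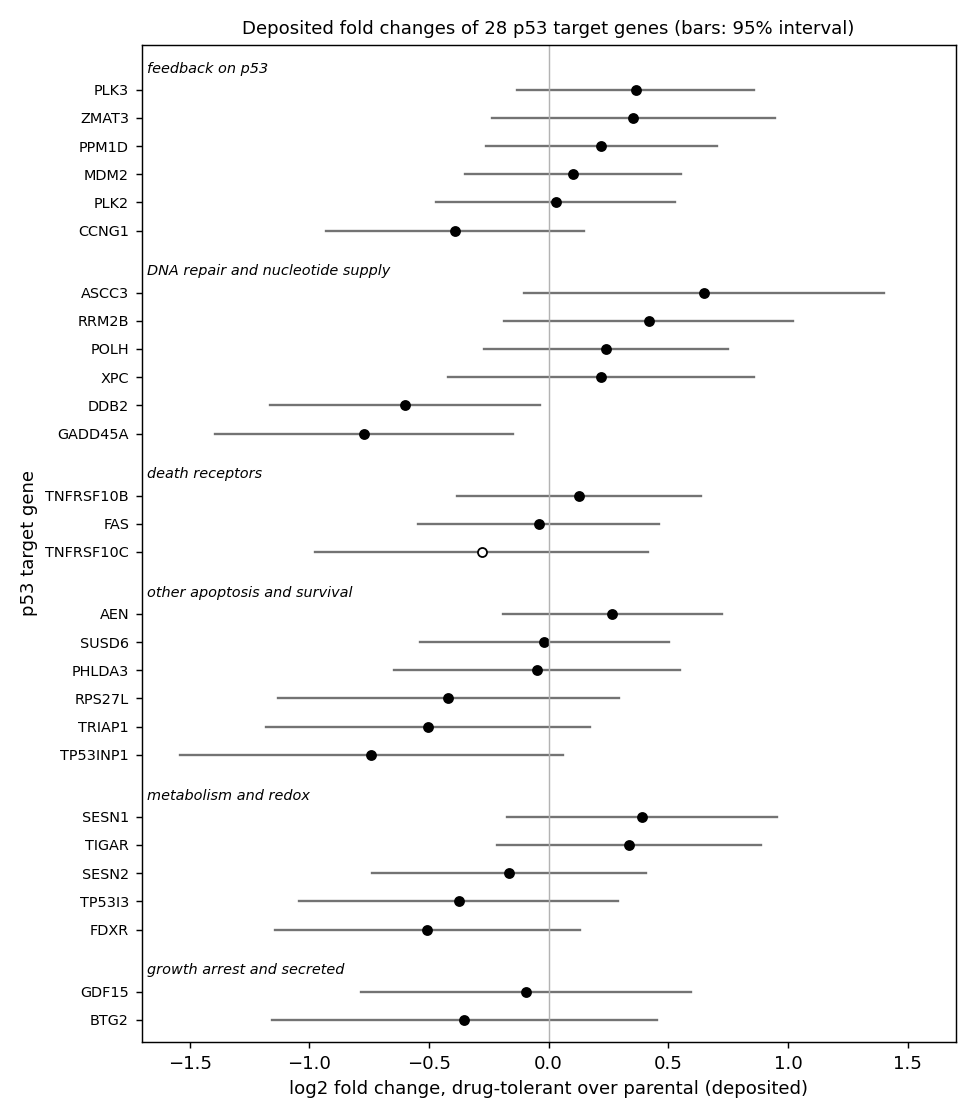
Deposited log2 fold changes (horizontal axis, drug-tolerant over parental) of 28 p53 target genes, grouped by role, with 95% intervals as bars; the open circle is TNFRSF10C, which has no adjusted p. All intervals cross 0 except those of GADD45A and DDB2, and no gene has an adjusted p under 0.05.

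Among the genes that feed back on p53, MDM2, the ubiquitin ligase that degrades it, was nearly level. Its normalized reads were 987 in parental a, 895 in parental b, 785 in parental c, 951 in drug-tolerant a and 971 in drug-tolerant b. The drug-tolerant libraries lay inside the parental range, with log2 differences of -0.04 from parental a and 0.20 from b and c. Its fold change in the authors' deposited table was 0.10 ± 0.23 (SE, adjusted p = 0.84), with a 95% interval from -0.35 to 0.55. On the opposite strand MDM2 overlaps CPM in the annotation, and PLK3, POLH and TNFRSF10B likewise overlap TCTEX1D4, GTPBP2 and RHOBTB2. The setting used to count strand is not given in the sources used here.

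PLK3, a stress-responsive kinase, had 173, 171 and 185 normalized reads in parental a, b and c, against 216 and 252 in the drug-tolerant pair. PPM1D, the phosphatase that switches off p53 and its kinases, had 212, 191 and 213 in the parental libraries and 235 and 252 in the drug-tolerant ones. In both genes each drug-tolerant library lay above each parental library, by a small margin. PLK3 stood 1.35-fold above parental a and 1.31-fold above parental b and c, and PPM1D 1.15-fold and 1.21-fold. Neither was called in the authors' deposited table, where PLK3 had 0.36 ± 0.25 (adjusted p = 0.53) and PPM1D 0.22 ± 0.25 (adjusted p = 0.67).

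ZMAT3, an RNA-binding protein of splicing control, and CCNG1, which recruits a phosphatase to MDM2, divided the parental libraries. ZMAT3 had 565 normalized reads in parental a, 365 and 311 in b and c, against 547 and 563 in the drug-tolerant libraries. CCNG1 had 968 in parental a, 1499 and 1504 in b and c, against 996 and 944 in the drug-tolerant libraries. In both, parental a and the drug-tolerant libraries were alike and parental b and c were apart, higher for CCNG1 and lower for ZMAT3. Against parental a alone the log2 difference was -0.03 for ZMAT3 and 0.00 for CCNG1, and against b and c it was 0.72 and -0.63. The fold changes in the authors' deposited table were 0.35 ± 0.30 (adjusted p = 0.58) for ZMAT3 and -0.39 ± 0.28 (adjusted p = 0.53) for CCNG1. PLK2, a kinase related to PLK3, had 0.03 ± 0.25 (adjusted p = 0.96) in the authors' deposited table. Its mean level was above the range searched for reads.

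The DNA repair and nucleotide genes held both the highest and the lowest fold change of the members in the authors' deposited table, where fold changes are shrunken towards 0. Of these 6 genes, 4 had positive fold changes, beside 48.4% of all tested genes. After removal of the trend over length and GC content the highest member was PLK3 (0.46) and the lowest TP53INP1 (-0.91), and TP53INP1 was also the lowest of the 26 tested members in recovered reads (-1.56). GADD45A (chr1:67685061-67688338, hg38, + strand), a stress protein tied to repair and growth arrest, had 776 normalized reads in parental a, 1574 in parental b, 1506 in parental c, 667 in drug-tolerant a and 664 in drug-tolerant b. Both drug-tolerant libraries were the lowest, just under parental a and far under parental b and c. Parental cells averaged 1285 ± 443 (SD, n = 3) and drug-tolerant cells 665.5 ± 1.7 (SD, n = 2). The level was 1.17-fold higher in parental a, and 2.31-fold higher in b and c, than in drug-tolerant cells. The fold change in the authors' deposited table was -0.77 ± 0.32 (adjusted p = 0.39).

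DDB2 (chr11:47214465-47239240, hg38, + strand), the damage sensor of nucleotide excision repair, had 385, 559 and 649 normalized reads in parental a, b and c, against 329 and 323 in the drug-tolerant pair. It too was lowest in the drug-tolerant libraries, with parental a next, at 1.18-fold above them, and parental b and c 1.85-fold above them. In the authors' deposited table it had -0.60 ± 0.29 (adjusted p = 0.45).

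XPC, which recognises damage in the same repair pathway, did not follow DDB2. Its normalized reads were 209 in parental a, 106 and 132 in the other parental libraries, and 173 and 188 in the drug-tolerant libraries. The drug-tolerant libraries lay between the parental ones, at a log2 difference of -0.21 from parental a and 0.60 from b and c, and the fold change in the authors' deposited table was 0.22 ± 0.33 (adjusted p = 0.75). On the opposite strand XPC overlaps LSM3.

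ASCC3 (chr6:100508194-100881372, hg38, - strand), a helicase that unwinds alkylated DNA and clears stalled ribosomes, showed the widest split of the parental libraries among the members. Parental a had 2484 normalized reads, parental b 753 and parental c 736, against 2557 and 2584 in the drug-tolerant libraries. The drug-tolerant libraries were 1.03-fold above parental a and 3.45-fold above b and c. The groups did not overlap, but the gap to parental a was narrow. Its fold change in the authors' deposited table, 0.65 ± 0.38 (adjusted p = 0.50), was the highest of the members. RRM2B, a subunit of ribonucleotide reductase, and POLH, the polymerase that copies past UV lesions, placed parental a beside the drug-tolerant libraries in the same way. RRM2B had 473 in parental a, 267 and 277 in b and c, and 452 and 509.6 in drug-tolerant cells, and POLH had 373, 281 and 277 against 369 and 380.3. Both overlapped parental a, with log2 differences from it of 0.02 and 0.01, and of 0.82 and 0.43 from b and c. In the authors' deposited table RRM2B had 0.42 ± 0.31 (adjusted p = 0.54) and POLH 0.24 ± 0.26 (adjusted p = 0.65).

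**Figure D2:**
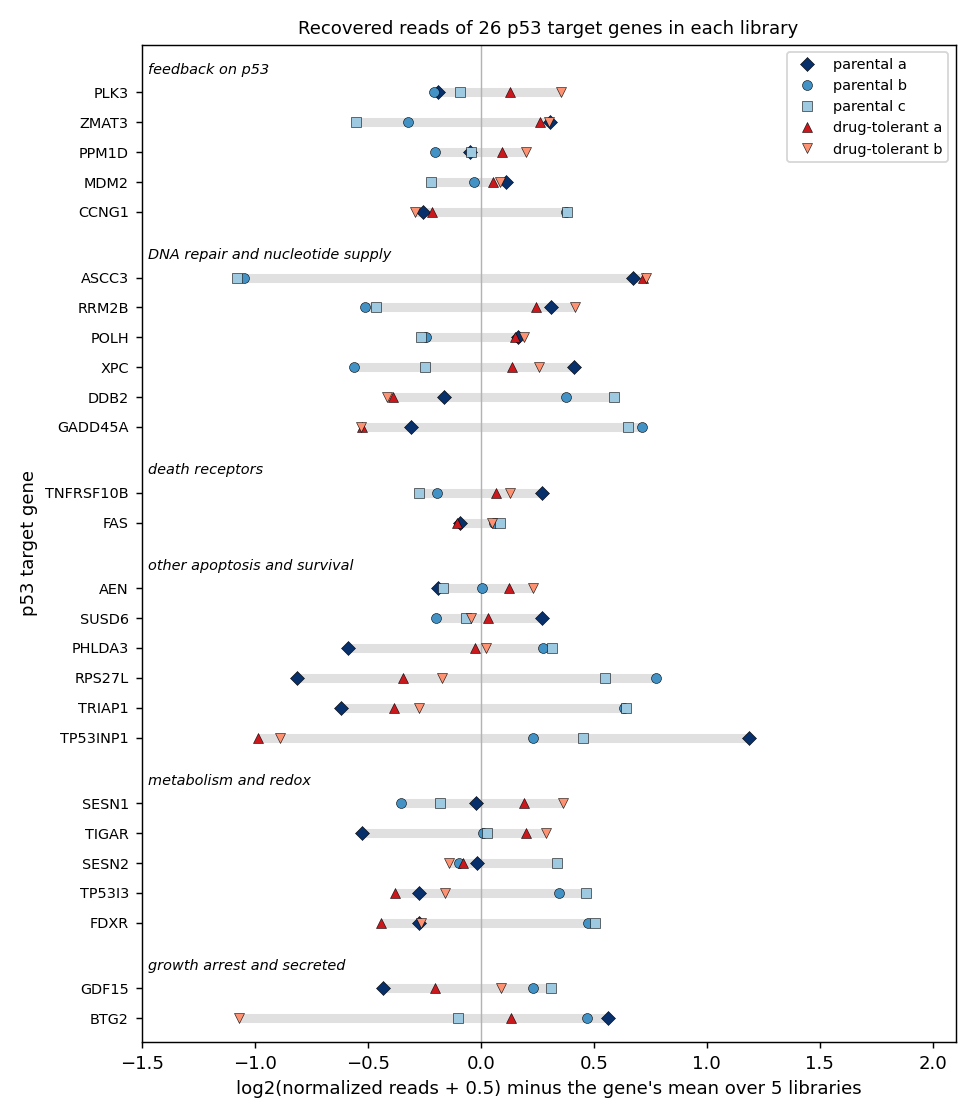
Recovered reads of 26 p53 target genes in each of the 5 libraries, as log2 of the normalized reads plus 0.5, minus the gene's mean over the libraries (horizontal axis); grey bands span the libraries. In 19 of the 26 genes the parental a diamond lies nearer to the drug-tolerant triangles than to parental b and c.

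The 2 death receptors tested had small fold changes of opposite sign. TNFRSF10B, the TRAIL receptor DR5, had 1525 normalized reads in parental a, 1106 and 1047 in the other parental libraries, and 1326 and 1382 in the drug-tolerant libraries. The drug-tolerant libraries lay below parental a, at a log2 difference of -0.17, and above b and c, at 0.33. FAS, the receptor of the FAS ligand, had 161, 179 and 182 in parental a, b and c, against 159.6 and 177 in drug-tolerant cells, which overlapped, with log2 differences of 0.06 from parental a and -0.10 from b and c. In the authors' deposited table FAS had -0.04 ± 0.26 (adjusted p = 0.94), with a 95% interval from -0.55 to 0.46, and TNFRSF10B 0.13 ± 0.26 (adjusted p = 0.82). FAS overlaps ACTA2 on the opposite strand.

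TNFRSF10C, a decoy TRAIL receptor without a death domain, was near the limit of detection, with 8, 3 and 6 reads in the parental libraries (a, b, c) and 5 and 0 in the drug-tolerant ones. Its mean level of 4.06 lay under the 8.23 that was the lowest among genes given an adjusted p in the authors' deposited table. Its relatives outside the member list, TNFRSF10A, a signalling TRAIL receptor, and TNFRSF10D, another decoy, were well measured. TNFRSF10A had 405 normalized reads in parental a, 239 and 219 in b and c, and 435 and 429.8 in drug-tolerant cells. For TNFRSF10D the values were 381, 284 and 238 in the parental libraries and 398 and 436 in the drug-tolerant ones. Log2 differences were 0.09 and 0.13 from parental a and 0.92 and 0.68 from b and c, in the order named. The authors' deposited table gave TNFRSF10A 0.48 ± 0.31 (adjusted p = 0.51) and TNFRSF10D 0.40 ± 0.28 (adjusted p = 0.53). These 3 genes and TNFRSF10B are similar in sequence, so how reads were divided among them is uncertain.

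Among the other apoptosis and survival genes, 5 of 6 had negative fold changes. The exception was AEN, an exonuclease that cuts DNA in dying cells and the gene with the full site printed above. It had 319.8, 367 and 325 normalized reads in parental a, b and c, against 398 and 428 in the drug-tolerant libraries, which lay above all 3. The margin was 1.29-fold over parental a and 1.2-fold over b and c, and the fold change in the authors' deposited table was 0.27 ± 0.23 (adjusted p = 0.59).

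TP53INP1, a promoter of p53-dependent death and of autophagy, was low throughout, with 21, 9 and 10 reads in parental a, b and c, against 4 and 3 in the drug-tolerant pair. After normalization these were 17.6, 8.85 and 10.4 against 3.53 and 3.80, and both drug-tolerant libraries were below every parental one. Parental a was the highest, 4.35-fold above the drug-tolerant libraries, and parental b and c were 2.43-fold above them. With so few reads the fold change in the authors' deposited table was -0.74 ± 0.41 (adjusted p = 0.49), and the mean level of 8.84 was just inside the range given an adjusted p. TP53INP1 overlaps NDUFAF6 on the opposite strand.

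TRIAP1, which supports survival and carries lipid into mitochondria, PHLDA3, an inhibitor of AKT, and RPS27L, a ribosomal protein paralog, had drug-tolerant values between the parental ones. TRIAP1 had 282 normalized reads in parental a, 672 and 677 in b and c, and 332 and 359 in drug-tolerant cells. PHLDA3 had 644 in parental a, 1171 and 1201 in b and c, and 949 and 981 in drug-tolerant cells. For RPS27L the values were 191, 574 and 491 in the parental libraries and 264 and 298 in the drug-tolerant ones. All 3 were therefore higher in drug-tolerant cells than in parental a (log2 differences of 0.29, 0.58 and 0.56 in the order named) and lower than in b and c (-0.97, -0.30 and -0.92). In the authors' deposited table these genes had -0.50 ± 0.35, -0.05 ± 0.31 and -0.42 ± 0.36 (adjusted p = 0.52, 0.95 and 0.59). RPS27L is close in sequence to RPS27, which had -0.60 ± 0.32 (adjusted p = 0.47) in the authors' deposited table, and it overlaps LACTB on the opposite strand. SUSD6, a membrane protein, had 334, 241 and 264 against 283 and 269, with log2 differences of -0.28 from parental a and 0.13 from b and c. Its value of -0.02 ± 0.26 in the authors' deposited table was the smallest in size among the members.

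The metabolic members split by gene. TIGAR, which lowers the glycolytic activator fructose-2,6-bisphosphate, had 153, 221 and 224 normalized reads in parental a, b and c, against 252 and 269 in the drug-tolerant libraries. SESN1, a stress-induced inhibitor of mTORC1, had 99.1, 78.6 and 88.5 against 115 and 129. In both, each drug-tolerant library was above each parental one. TIGAR was 1.7-fold above parental a and 1.17-fold above b and c, and SESN1 was 1.23-fold and 1.46-fold above. The fold changes in the authors' deposited table were 0.34 ± 0.28 (adjusted p = 0.58) for TIGAR and 0.39 ± 0.29 (adjusted p = 0.54) for SESN1. SESN2, the close relative of SESN1, had 105, 99.3 and 134 in the parental and 101 and 96.3 in the drug-tolerant libraries, which overlapped. It differed by -0.09 from parental a and -0.23 from b and c on the log2 scale, with -0.17 ± 0.29 (adjusted p = 0.79) in the authors' deposited table.

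FDXR, the mitochondrial reductase that feeds electrons to ferredoxin, and TP53I3, a quinone reductase, stood under parental b and c and level with parental a. FDXR had 88.1 normalized reads in parental a, 148 and 152 in b and c, and 78.5 and 88.7 in drug-tolerant cells. TP53I3 had 50.4 in parental a, 77.6 and 84.3 in b and c, and 46.7 and 54.5 in drug-tolerant cells. Parental a lay between the drug-tolerant libraries in both genes. For FDXR and TP53I3 in turn, log2 differences were -0.08 and 0.00 from parental a and -0.84 and -0.68 from b and c. The authors' deposited table gave FDXR -0.51 ± 0.33 (adjusted p = 0.51) and TP53I3 -0.38 ± 0.34 (adjusted p = 0.60). TP53I3 overlaps FAM228B on the opposite strand.

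BTG2, an antiproliferative factor, and GDF15, a secreted stress cytokine, had few reads. BTG2 had 20, 16 and 10 reads in parental a, b and c, against 14 and 4 in the drug-tolerant pair, and the groups overlapped. GDF15 had 35.3, 56.0 and 59.3 normalized reads in the parental libraries and 41.4 and 50.7 in the drug-tolerant ones, again with overlap. Log2 differences were -1.03 and 0.37 from parental a and -0.65 and -0.33 from b and c, for BTG2 and GDF15 in turn. In the authors' deposited table their fold changes were -0.35 ± 0.41 (adjusted p = 0.68) and -0.09 ± 0.35 (adjusted p = 0.91).

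Over the 26 members with recovered reads and an adjusted p, both drug-tolerant libraries lay above all parental libraries in 6 (AEN, ASCC3, PLK3, PPM1D, SESN1 and TIGAR), or 23.1%, beside 16.3% of the 8571 recovered genes. They lay below all parental libraries in 3 (DDB2, GADD45A and TP53INP1), or 11.5%, beside 18.6%. Parental a was nearer to the drug-tolerant mean than to the mean of b and c in 19 members, or 73.1%, and in 75.4% of all recovered genes. The direction against parental a was opposite to that against b and c in 12 members, or 46.2%, and in 48.2% of all recovered genes. The median absolute log2 difference of the members was 0.22 against parental a and 0.57 against parental b and c, and over all recovered genes it was 0.26 and 0.61. The members reach means of up to 2000, while genes not named here were searched only up to 500, so the shares cover unlike ranges of level. Whether the members differ from other genes in these shares was not tested.

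The test on reads turned on 1 library. Without parental a, limma called 11 members higher and 8 lower at an adjusted p under 0.05, in all 19 of 26 or 73.1%, beside 63.6% of all 8571 genes (31.6% higher and 32.0% lower). Members were searched up to a mean of 2000 and genes not named here up to 500, so these shares cover unlike ranges of level. The recovered members above 500, ASCC3, CCNG1, GADD45A, MDM2, PHLDA3 and TNFRSF10B, were all called. The higher members were AEN, ASCC3, MDM2, PLK3, POLH, PPM1D, RRM2B, SESN1, TNFRSF10B, XPC and ZMAT3. The lower ones were CCNG1, DDB2, FDXR, GADD45A, PHLDA3, RPS27L, TP53I3 and TRIAP1. ASCC3 had the largest difference of these, 1.79 ± 0.05 (SE) on the log2 scale (limma, adjusted p = 4.1e-12), and GADD45A had the lowest, -1.21 ± 0.06 (limma, adjusted p = 3.8e-10). TIGAR and TP53INP1, whose groups did not overlap, were not called without parental a (limma, adjusted p = 0.061 for each). Leaving out parental b, parental c or either drug-tolerant library left 0 members called, and 0 of all genes. With parental a left out, the remaining libraries of each group differ by little more than sampling noise, and such a spread may be technical.

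The split of the parental libraries went with transcript length. Across the 26 members the log2 difference of parental a from b and c had a Spearman correlation of 0.70 with transcript length (the longest principal coding transcript of GENCODE release 29), and over 6187 recovered protein-coding genes it was 0.55. The log2 difference of drug-tolerant cells from parental a had correlations of -0.08 over the members and -0.18 over all. Across genes the points share the same libraries and are not independent. The 6 members under 2000 nt, DDB2, FDXR, GADD45A, GDF15, TP53I3 and TRIAP1, all had negative fold changes in the authors' deposited table. Their median was -0.50, and the 2984 tested protein-coding genes of that length had a median of -0.36. The 8 members over 4000 nt had a median of 0.17, beside 0.24 over all such genes. With the trend over length and GC content removed, GADD45A was at -0.48, DDB2 at -0.39 and ASCC3 at 0.38, and no member was called. ZMAT3 went from 0.35 to 0.06, TRIAP1 from -0.50 to -0.11 and PPM1D from 0.22 to 0.07, while RPS27L went from -0.42 to -0.66 and TP53INP1 from -0.74 to -0.91. RPS27L is drawn at the 6434 nt of its annotated principal transcript. Its place among the members over 4000 nt and its value after removal of the trend both rest on that length. The part of the length trend in these differences was not tested.

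**Figure D3:**
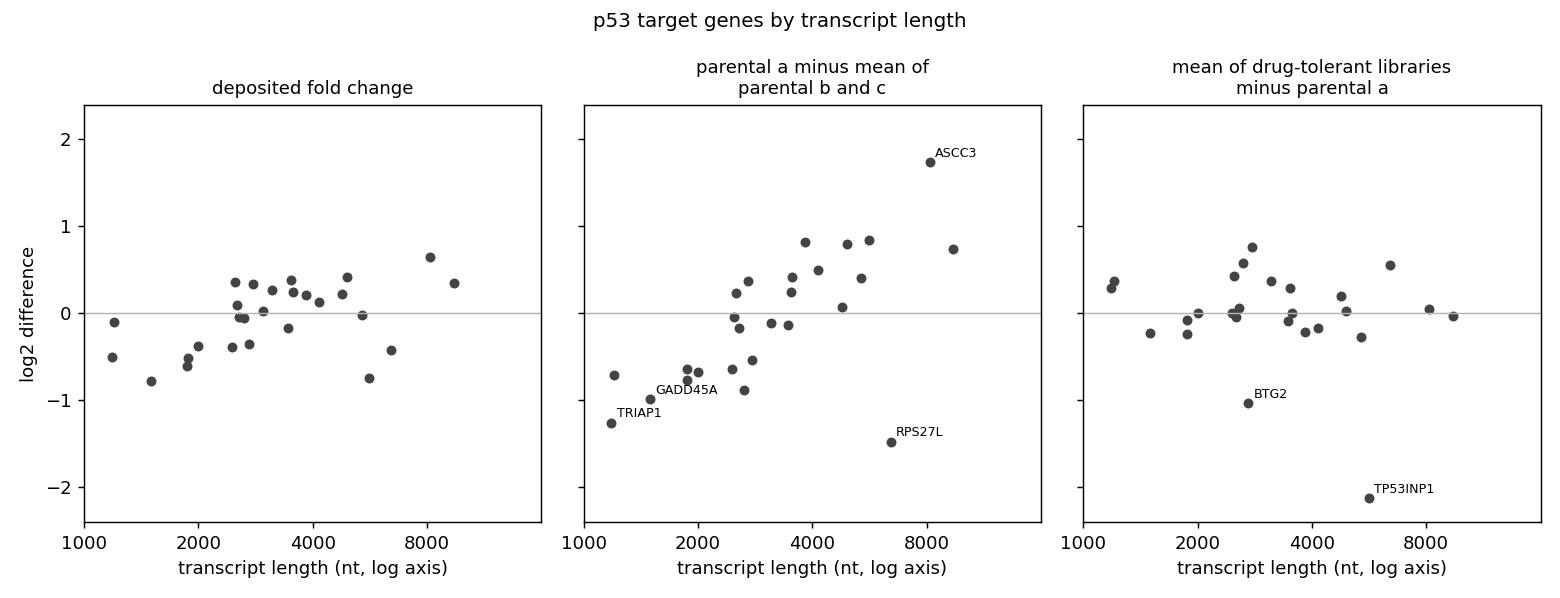
Log2 differences of the p53 target genes (vertical axis) against transcript length in nucleotides (log axis), with the deposited fold change on the left, parental a minus the mean of parental b and c in the middle, and the drug-tolerant mean minus parental a on the right. The middle panel rises from TRIAP1 at -1.26 to ASCC3 at 1.74, with RPS27L at -1.48 below the others of its length; in the right panel most genes lie near 0.

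Of 31 regulators of p53 found from a list of 32, 29 were tested and 0 were called. At an unadjusted p under 0.05 the deposited DESeq2 test held 2 of them higher and 5 lower. Their median fold change was -0.09. Of all 15223 genes tested, 0.263% were called higher and 0.289% lower. At an unadjusted p under 0.05, 563 of all genes were higher and 1081 lower, or 10.8% in both directions together. Whether the regulators differ from other genes in these shares was not tested. MDM4, the partner of MDM2 that masks p53, had 1058 normalized reads in parental a, 385 and 352 in b and c, and 1025 and 920.4 in drug-tolerant cells, so the drug-tolerant libraries lay just under parental a and far above b and c. CREBBP, an acetyltransferase that coactivates p53, had 1634, 764 and 687 in the parental and 1935 and 1994 in the drug-tolerant libraries, and PPP1R13B, which steers p53 to death genes, had 262, 215 and 215 against 347 and 337. Both were higher in each drug-tolerant library than in each parental one, and in the authors' deposited table they had 0.72 ± 0.34 (adjusted p = 0.45) and 0.51 ± 0.25 (adjusted p = 0.46). For MDM4, CREBBP and PPP1R13B in turn, log2 differences were -0.12, 0.27 and 0.39 from parental a and 1.40, 1.44 and 0.67 from b and c. USP7, the deubiquitinase of MDM2 and p53, had 0.42 ± 0.24 (adjusted p = 0.49) in the authors' deposited table. The ribosomal proteins that bind MDM2, RPL23, RPL11 and RPL5, had -0.87 ± 0.34, -0.81 ± 0.34 and -0.75 ± 0.33 (adjusted p = 0.37, 0.41 and 0.43) in the authors' deposited table.

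Of 68 other p53 targets listed, 66 were found and 64 tested, and 1 was called, higher. At an unadjusted p under 0.05 the deposited DESeq2 test held 1 of them higher and 5 lower. Their median fold change was -0.05. Of all 15223 genes tested, 0.263% were called higher and 0.289% lower, and 563 were higher and 1081 lower at an unadjusted p under 0.05. The target called was KITLG (chr12:88492793-88580851, hg38, - strand), the ligand of the KIT receptor. It had 416 normalized reads in parental a, 265 and 248 in the other parental libraries, and 777 in each drug-tolerant library. Both drug-tolerant libraries were 1.87-fold above parental a and 3.03-fold above b and c, at 1.13 ± 0.29 (adjusted p = 0.028) in the authors' deposited table. With the length and GC trend removed it was 1.03 (adjusted p = 0.064). limma gave KITLG 1.37 ± 0.26 (SE, adjusted p = 0.26) with all 5 libraries and 1.60 ± 0.08 (SE, adjusted p = 3.9e-10) without parental a. In the latter setting limma called 31.6% of all 8571 recovered genes higher.

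CDKN1A, the inhibitor of cyclin-dependent kinases that stops the cell cycle, and BBC3, the BH3-only killer PUMA, are classic targets outside the member list. CDKN1A had 167 normalized reads in parental a, 409 and 439 in b and c, against 102 and 155 in the drug-tolerant libraries. BBC3 had 93.2, 102 and 124 in the parental and 49.4 and 29.2 in the drug-tolerant libraries. Both were lowest in the drug-tolerant libraries, CDKN1A by 1.33-fold under parental a and 3.36-fold under b and c, and BBC3 by 2.44-fold and 2.94-fold. Neither was called, with -1.01 ± 0.36 (adjusted p = 0.27) and -1.12 ± 0.33 (adjusted p = 0.088) in the authors' deposited table. With all 5 libraries limma called neither BBC3 nor CDKN1A (adjusted p = 0.26 and 0.38). Without parental a it called both lower (-1.56 ± 0.22 and -1.75 ± 0.15, SE, adjusted p = 1.7e-05 and 5.3e-08). In that setting, where spread within groups was little more than sampling noise, limma called 32.0% of all 8571 recovered genes lower. RAP2B, a small GTPase, had -0.80 ± 0.27 (adjusted p = 0.19) in the authors' deposited table, and with the length and GC trend removed -1.09 (adjusted p = 0.029). The stress factor ATF3 and the receptor EPHA2 had positive values, 0.80 ± 0.41 (adjusted p = 0.46) and 0.41 ± 0.22 (adjusted p = 0.49) in the authors' deposited table. CDKN1A overlaps the noncoding gene DINOL on the opposite strand.

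**Figure D4:**
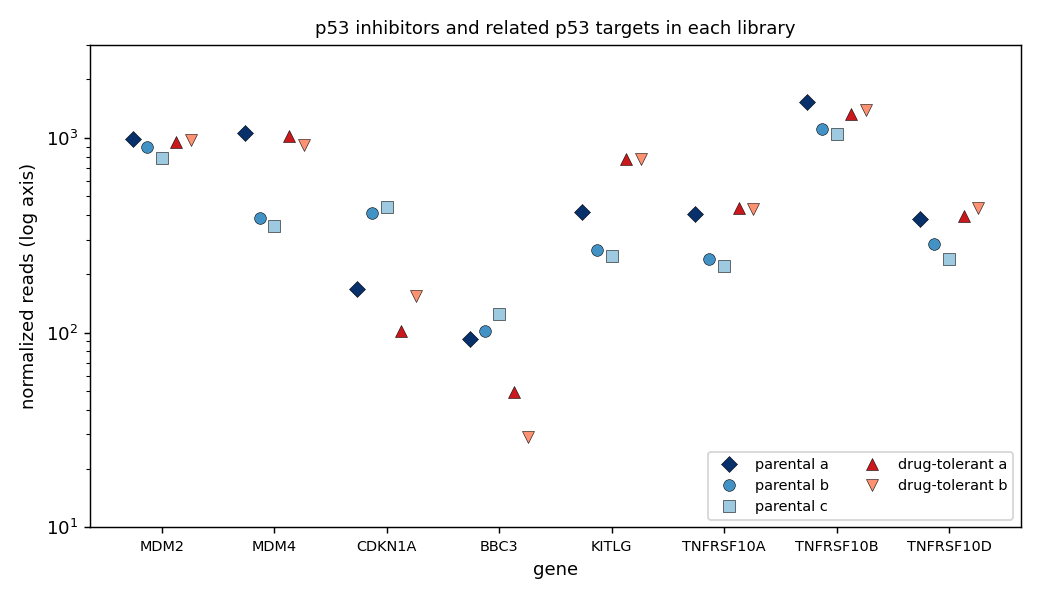
Normalized reads (log axis) of the p53 inhibitors MDM2 and MDM4 and of related p53 targets in each of the 5 libraries. BBC3 and CDKN1A are lower, and KITLG, TNFRSF10A and TNFRSF10D higher, in both drug-tolerant libraries than in all parental libraries. Of all 8571 recovered genes, 18.6% were lower and 16.3% higher in this way. MDM4 in parental a, at 1058, lies beside the drug-tolerant libraries.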

How the data were processed

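mRNA libraries of PC9 cells, 3 parental and 2 drug-tolerant, were made with a stranded mRNA kit, per the labels' protocols. The submitters' processing notes name STAR, FastQC and hg38, and DESeq2, which the authors used. Versions, annotation and the counting tool were not given in the sources used here. Per gene, the authors deposited a mean level (a signal, size-factor scaled), log2 fold changes with standard errors, Wald scores, p-values and adjusted p-values. The file holds no counts, so the planned edgeR test was not run, and the deposited Wald test is the main test. The members and lists were chosen with earlier results of these data known. Genes named were all members, MDM4, CDKN1A, close relatives, and from the other targets and regulators every called gene and otherwise up to 3 per direction with the smallest adjusted p, and 1 gene of this rule is not reported here.

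Reads per library were recovered with numba 0.67.0. The authors' deposited fold changes follow a DESeq2 fit with a prior on the effect of each group, centred on 0 and of variance 0.336. A gene's reads were accepted where the fold change differed by at most 1e-08 (5e-08 at means under 30). All 3195 distinct means under 4 resolved in 1 way, and a library's group is the side of the deposited comparison on which its reads enter the fold change (3 parental, 2 drug-tolerant). The search covered the 9041 tested genes with a mean of at most 500, or 2000 for named genes. It resolved 94.8% in 1 way, 1 gene in more than 1 way and 469 in none within the ranges searched. On simulated data the recovery returned 98% of 200 genes exactly and 0 wrongly, at means up to 500. Recovery at means above 500, which covers ASCC3, CCNG1, GADD45A, MDM2, PHLDA3 and TNFRSF10B, was not tested in this way. On simulated data limma with all 5 libraries found 58% of 100 changes of size 1 on the log2 scale, and 99% at size 2. The simulation gave every gene the same spread beyond sampling noise and set no library apart. Its shares therefore need not hold for the recovered reads. In the recovered reads, where parental a stood apart, limma called 0 of 8571 genes. limma 3.58.1 (trend, R 4.3.3, pseudocount 0.5) tested recovered reads, an analysis added after seeing the data. All p-values were adjusted by the Benjamini-Hochberg method over all genes tested. Lengths came from GENCODE release 29 and promoters from RefSeq. Intervals on the log2 scale are the estimate ± 1.96 SE.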

Additional observations from a re-analysis of the deposited data

How the results depend on the processing

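The count of members called, 0 higher and 0 lower in the deposited test, was the same at adjusted p thresholds of 0.01 and 0.10, with no filter on low counts, at means of at least 10 and 50, with scores centred or divided by their robust SD, after removal of the trend over length and GC, and at an absolute log2 fold change of at least 1. With limma on recovered reads, leaving out each library in turn gave 0 to 11 members called higher and 0 to 8 lower, and the highest counts came without parental a. The median of the members moved within its spread under each alternative run, from -0.03 to 0.07 for the deposited fold change, and leaving out each library gave -0.10 to 0.03 for recovered reads. Removing the length and GC trend turned the sign of FAS (0.10), GDF15 (0.27) and PHLDA3 (0.024), and centring turned that of SUSD6 to 0.00024, none of them called. Pseudocounts of 1 and 2 and scaling by total recovered reads moved no member by more than its spread. No paired analysis was possible because the deposited table carries no replicate numbers and the recovered libraries could not be matched to them. Means above the range searched and low reads limit what can be said of PLK2, BTG2, TP53INP1 and TNFRSF10C.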
